A study of Mus musculus with 18 samples.

Results

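The genes of the DNA replication machinery were followed through polysome gradients of mouse embryonic stem cells (ESCs). The set held 43 genes named for their textbook roles at the replication fork and in origin licensing: the 6 subunits of the origin recognition complex, the loaders Cdc6 and Cdt1 with the Cdt1 inhibitor Gmnn, the 6 subunits of the MCM helicase, 8 factors that fire it, the sliding clamp and its 5 loader subunits, 9 subunits of the replicative polymerases and primase, the flap nuclease Fen1, the ligase Lig1 and the 3 subunits of the single-strand binding protein RPA. All 43 were among the 51467 genes of the count table, and all 43 were among the 12851 genes with enough reads to be tested, which had to reach 3 CPM, reads scaled to a common library total, in at least 3 libraries. Wild-type (WT) ESCs of the V6.5 line were compared with 1 previously made Dgcr8 knockout (KO) ESC line, so genotype and line cannot be told apart. Both were grown in medium with serum, LIF and the 2i inhibitors PD0325901 and CHIR99021, and both received 100 ug/ml cycloheximide for 2 minutes before lysis. DGCR8 is the RNA-binding partner of the nuclease DROSHA in microRNA (miRNA) processing, and ESCs without it lack canonical miRNAs. For each genotype 3 sucrose gradients were each split into a monosome, a low polysome (2 to 4 ribosomes) and a high polysome (4 or more ribosomes) fraction, which gave 6 groups of 3 libraries. Nothing in the labels says that the 3 samples of a genotype were separate cultures, so the p-values measure the spread between these samples, which may be technical.

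DNA replication begins when the origin recognition complex, with CDC6 and CDT1, places the ring-shaped MCM helicase around DNA, and geminin, the product of Gmnn, blocks reloading after S phase has begun. The kinase CDC7 with its partner DBF4 then lets CDC45 and the GINS complex join the MCM ring, which makes the active CMG helicase. Polymerase alpha with primase lays primers, the RFC clamp loader places the PCNA ring, polymerases delta and epsilon extend, FEN1 and LIG1 finish the lagging strand, and RPA covers single strands. ESCs divide fast, with a short G1 phase, and many of these genes are targets of E2F transcription factors.

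Library totals ranged from 1151649 to 4984833 counts. Reads came from the 3′ ends of polyadenylated transcripts and levels are CPM after scaling with TMM factors, so every level is a share of the fraction's RNA and not an amount per cell. Fewer cells of a type and less RNA per cell cannot be told apart in such bulk samples. All 10 markers of pluripotent cells were tested, among them Pou5f1, Sox2 and Nanog, with a summed level of 3257 to 6211 CPM per library. In monosomes that sum was 3442 to 3583 CPM in WT and 3682 to 4118 CPM in KO cells. In low polysomes it was 4082 to 4140 CPM in WT and 3881 to 4110 CPM in KO cells. In high polysomes it was 5659 to 6211 CPM in WT and 3257 to 3959 CPM in KO cells. There 5 of the 10 markers fell at an adjusted p under 0.05 in limma-voom and 5 did not pass, where 31.6% of all genes fell. Of 7 markers of feeder fibroblasts and 10 of early differentiation, 2 each passed the filter, with 0 to 2 feeder and 0 to 4 differentiation markers at 0 in all libraries of a group. Their sums were 7.18 to 12.8 CPM (feeders) and 31.2 to 62.3 CPM (differentiation) in WT, and 2.41 to 22.2 and 15.2 to 27.1 CPM in KO libraries. The part of these other cells in the results below was not tested. Dgcr8 itself still gave 8.73 to 58.6 CPM in the KO libraries against 26.1 to 79.6 in WT, with all fractions pooled. Fraction by fraction, limma-voom placed Dgcr8 lower in KO cells. The log2 values were -0.56 for monosomes (adjusted p = 0.0185) and -0.45 for low polysomes (adjusted p = 0.0223). For high polysomes the value was -1.01 (adjusted p = 0.000276). The labels do not say which part of the gene was deleted, and a deletion away from the 3′ end would leave 3′ reads in place. These reads therefore cannot show whether the gene was lost. Counts of every member ranged from 16 (Prim2, in 2 WT monosome libraries) to 5637 (Lig1).

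As a share of the monosome and low polysome RNA, the replication genes were lower in KO than in WT cells. Their summed level in monosomes was 6143, 6309 and 6172 CPM in WT gradients 1 to 3 and 4181, 4424 and 4167 CPM in the KO gradients. In low polysomes the sums were 5201, 5325 and 5242 CPM in WT and 4536, 3749 and 4070 CPM in KO. In high polysomes they were 7624, 7016 and 7651 CPM in WT and 7217, 5989 and 7250 CPM in KO. Every KO library was below every WT library in the first 2 fractions, whereas the high polysome groups overlapped. A sum is weighted toward abundant genes. In high polysomes the mean level of Lig1 was 779 CPM in WT and 1253 CPM in KO, and that of Mcm7 was 702 and 1021 CPM. Of the 43 members, 30 had a negative and 13 a positive log2 change in that fraction.

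Gene by gene, the KO against WT change in each fraction was tested with limma-voom, and a gene was called at a Benjamini-Hochberg adjusted p under 0.05 over all genes tested together with an absolute log2 change over 1. In monosomes 5 members were called lower (Cdt1, Mcm4, Mcm5, Gins2 and Rfc4) and 0 higher, against 9.63% of all genes lower and 8.43% higher. At an adjusted p under 0.05 with no fold threshold, 18 of 43 (41.9%) were lower and 1 higher (Orc5), where the shares of all genes were 19.9 and 17.5%. In low polysomes Gins2 and Rfc4 were called lower and 0 members higher, against 13.6 and 11.4% of all genes. By the adjusted p alone, 19 of 43 (44.2%) fell there and 2 (Orc5 and Rpa2) rose, against 26.2 and 26.1% of all genes. In high polysomes 9 members were called lower (Gins1, Gins2, Gins3, Gins4, Orc6, Gmnn, Rfc2, Rfc4 and Rpa3), which is 20.9% of the members and close to the 17.9% of all genes. Orc5 was the 1 member called higher there, against 15.1% of all genes. Without the fold threshold, 24 of 43 (55.8%) fell in high polysomes and 7 (16.3%) rose, compared with 31.6 and 29.1% of all genes. The median log2 change over the 43 members was -0.39 in monosomes, -0.30 in the low and -0.39 in the high fraction, and over all genes it was -0.05, 0.00 and -0.08. The 3 comparisons use different libraries, but these are fractions of the same gradients, fitted together, so the comparisons are not independent. In all 3, 9 members (Cdc7, Cdt1, Dbf4, Gins2, Mcm4, Mcm5, Orc6, Rfc2 and Rfc4) had an adjusted p under 0.05 and a negative change. That is 20.9%, against 10.7% of all genes.

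**Figure D1:**
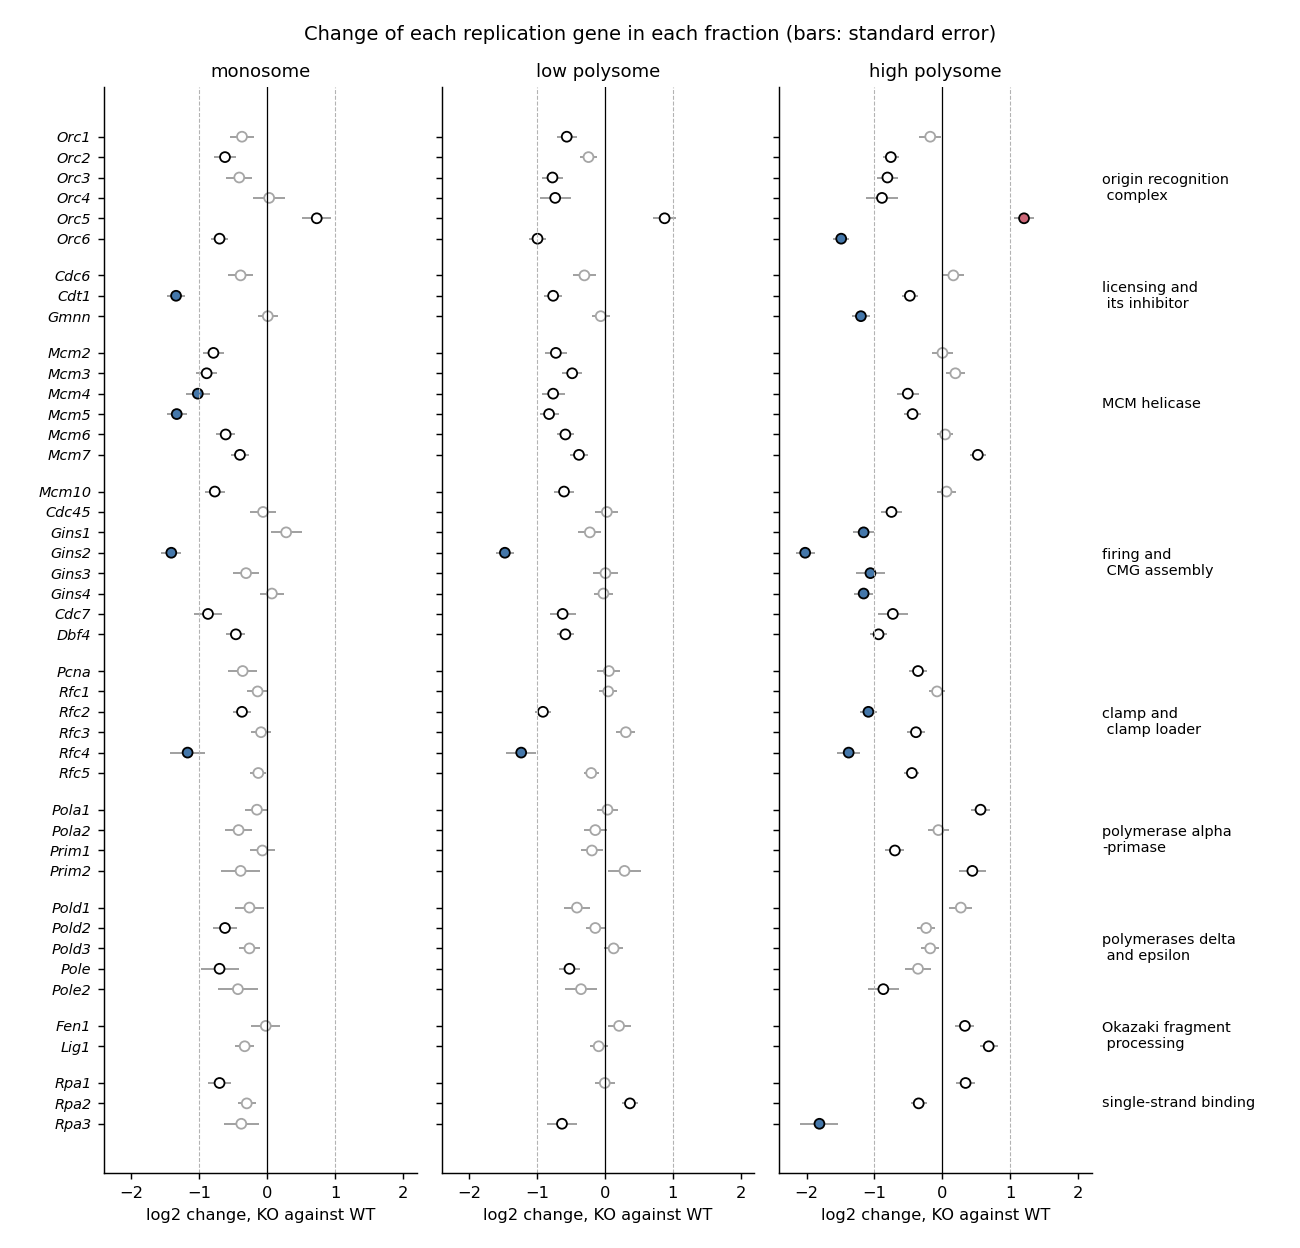
The log2 change of each of the 43 replication genes, KO against WT, in monosome, low polysome and high polysome libraries, with bars of 1 standard error and dashed lines at a log2 change of -1 and 1. Filled points were called (blue lower, red higher), open points with a black edge had an adjusted p under 0.05, and grey edges mark the rest. The MCM subunits lie left of 0 in the first 2 panels and around 0 in the third, while the 4 GINS subunits lie left of -1 in the third.

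Translation level here means the ratio of a message in high polysomes to that in monosomes. Its KO to WT change, an interaction term of genotype with fraction in the same limma-voom model, asks whether messages shifted between heavy and light fractions beyond any change of their amount. Members split in both directions. Mcm3, Lig1 and Rpa1 were called higher and Gins1, Rpa3, Gins4 and Gmnn lower. These counts, 3 and 4 of 43 (6.98 and 9.3%), are near the 6.29 and 8.81% of all genes. By the adjusted p alone, 10 members (23.3%) rose, which were Mcm2, Mcm3, Mcm5, Mcm6, Mcm7, Mcm10, Cdt1, Pola1, Lig1 and Rpa1, and 13% of all genes did. The 11 members (25.6%) that fell were Gins1 to Gins4, Gmnn, Rpa3, Orc4, Orc6, Rfc2, Prim1 and Cdc45, against 15.2% of all genes. With the gradient as a replicate block, which pairs the fractions of 1 gradient, Mcm4, Cdc6 and Prim2 also rose and Dbf4 also fell, for 13 and 12 members. All 3 KO gradients lay above all 3 WT gradients for 11 members and below them for 11 (25.6% each), where the shares of all genes were 20.3 and 21.4%. The median change over the members was 0.08, beside 0.01 over all genes. Scaling by total counts instead of TMM moved the median of all genes from 0.01 to -0.32 and that of the members from 0.08 to -0.25, and the calls from 3 higher and 4 lower to 0 higher and 9 lower, so directions here are relative to the TMM scale. Without KO gradient 2 the count of called members was 11 in place of 7, and without KO gradient 3 it was 4.

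The MCM helicase, the motor that unwinds the fork, was lower in the light fractions and moved toward the heavy one. All 6 subunits had a negative change with an adjusted p under 0.05 in monosomes, from -1.33 (Mcm5) to -0.40 (Mcm7), and again in low polysomes, from -0.82 (Mcm5) to -0.38 (Mcm7). Their summed level in monosomes was 1998, 1995 and 1991 CPM in WT and 1158, 1288 and 1279 CPM in KO gradients. In high polysomes the sums were 2047, 1904 and 2050 CPM in WT and 2525, 1725 and 2562 CPM in KO. KO gradient 2 stood below the other KO gradients in the high polysome fraction, and the groups overlapped there. Of the subunits, Mcm7 rose in high polysomes (0.52 ± 0.12, adjusted p = 0.000318), Mcm4 and Mcm5 fell (-0.51 ± 0.16 and -0.44 ± 0.13), and Mcm2, Mcm3 and Mcm6 did not pass the test (0.00, 0.19 and 0.04). Without KO gradient 2, 0 subunits fell and 2 rose in that fraction, and under total-count scaling Mcm7 alone of the 6 had a positive change there. The monosome call of Mcm4 (-1.02 ± 0.18, adjusted p = 2.45e-05) was lost in 5 of 14 alternatives, among them leaving out KO gradient 2 (-0.92) or WT gradient 3 (-0.95). The log2 values carry their standard error after ± here and below.

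Mcm3 (ENSMUSG00000041859, chromosome 1, 20802968 to 20820312, minus strand, in GRCm38 as for all genes here) showed the largest change in translation level of the MCM subunits. In WT cells its level was 372, 320 and 363 CPM in monosomes, 163, 176 and 187 in low polysomes and 319, 279 and 249 in high polysomes of gradients 1 to 3. In KO cells the levels were 211, 187 and 174, then 151, 103 and 128, then 412, 231 and 344 CPM. The KO libraries were lower in monosomes and low polysomes with no overlap, and spread to both sides of the WT range in high polysomes. The log2 ratio of high polysome to monosome was -0.22, -0.20 and -0.54 in WT and 0.96, 0.30 and 0.99 in KO gradients, a change of 1.08 ± 0.21 (adjusted p = 0.00013), about 2.11-fold. It dropped under the fold threshold without KO gradient 1 (0.98), KO gradient 3 (0.96) or WT gradient 3 (0.96), and under total-count scaling (0.75). Mcm7, Mcm5, Mcm2 and Mcm6 changed by 0.92 ± 0.18, 0.89 ± 0.20, 0.80 ± 0.22 and 0.65 ± 0.19 with adjusted p-values of 0.000104, 0.00059, 0.00426 and 0.00805. Mcm4 had a change of 0.51 ± 0.24 (adjusted p = 0.116), and with the gradient as a replicate block its adjusted p was 0.0277. For Mcm2 and Mcm4 the gradients of the genotypes overlapped, since KO gradient 2 lay within the WT range. The change was positive for all 6 subunits under every alternative run, total-count scaling included, and between 3 and 6 of them had an adjusted p under 0.05, with 3 under total-count scaling and 3 without WT gradient 2.

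**Figure D2:**
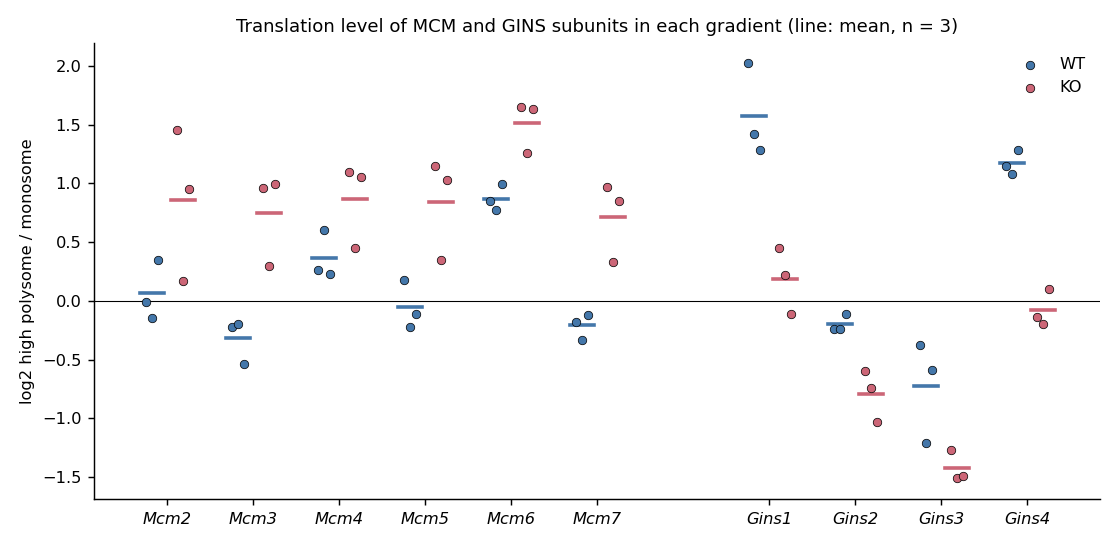
Translation level, as log2 of the high polysome to monosome ratio, of the 6 MCM subunits and the 4 GINS subunits in each of 3 WT (blue) and 3 KO (red) gradients, with a line at the mean. KO points lie above WT points for Mcm3, Mcm5, Mcm6 and Mcm7 and below them for all 4 GINS genes. The lowest KO point of each MCM subunit is from gradient 2.

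Promoters of several MCM genes carry letters like those bound by E2F factors, and 3 windows that hold such letters are shown as examples. A window holds 250 bases before and 50 after a RefSeq start (GRCm38.p6), written along the strand of the gene. Capitals mark TTTCCCGC, TTTGGCGC, TTTGCCGC or TTTCGCGC on either strand, and in Mcm5 and Mcm6 a pair of matches overlaps. RefSeq windows were found for 35 of 43 members (not for Gmnn, Mcm4, Gins1, Gins2, Gins4, Rfc2, Prim2 and Pole).
Mcm3, chr1:20820263-20820562, minus strand: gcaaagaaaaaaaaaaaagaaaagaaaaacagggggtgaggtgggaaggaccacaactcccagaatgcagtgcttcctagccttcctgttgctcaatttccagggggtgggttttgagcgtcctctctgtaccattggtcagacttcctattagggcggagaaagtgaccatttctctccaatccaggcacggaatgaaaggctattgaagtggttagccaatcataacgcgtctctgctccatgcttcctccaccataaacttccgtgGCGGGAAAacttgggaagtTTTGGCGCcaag
Mcm5, chr8:75109259-75109558, plus strand: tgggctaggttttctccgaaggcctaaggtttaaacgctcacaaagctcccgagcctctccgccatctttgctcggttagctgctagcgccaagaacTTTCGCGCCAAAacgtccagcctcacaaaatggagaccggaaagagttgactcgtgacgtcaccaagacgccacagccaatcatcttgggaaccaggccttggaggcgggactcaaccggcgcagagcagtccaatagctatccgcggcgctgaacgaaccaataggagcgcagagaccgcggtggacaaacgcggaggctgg
Mcm6, chr1:128359656-128359955, minus strand: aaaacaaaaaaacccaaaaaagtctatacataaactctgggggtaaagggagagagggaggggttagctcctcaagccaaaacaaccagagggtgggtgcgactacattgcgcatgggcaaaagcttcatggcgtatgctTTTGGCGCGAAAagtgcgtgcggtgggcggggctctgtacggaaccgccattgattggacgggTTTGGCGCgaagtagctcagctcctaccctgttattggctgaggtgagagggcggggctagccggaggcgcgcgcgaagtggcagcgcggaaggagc
Of the 35 members with a window, 15 (42.9%) held such letters, as did 704 of 27025 genes (2.6%) in the whole table. The letters CCAAT, the core of NF-Y sites, stood on either strand in windows of 21 of the 35 members (60%) and of 41.1% of all genes. Mcm3, Mcm5, Mcm6 and Mcm7 had both, and Mcm2 had CCAAT alone. A match of letters is a description and not a bound site.

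Mcm7 (ENSMUSG00000029730, chromosome 5, 138164583 to 138172422, minus strand) is also a host gene for miRNAs. Intron 13 of its principal transcript, which has 15 exons, holds miR-106b, miR-93 and miR-25 on the same strand. They are shown beside miR-294 and miR-302b of the ESC-enriched ESCC family, with the seed (bases 2 to 8) in capitals, since ESCs without DGCR8 lack the mature forms of all of them.
mmu-miR-106b-5p, chr5:138165787-138165807, minus strand: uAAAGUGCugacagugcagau
mmu-miR-93-5p, chr5:138165574-138165596, minus strand: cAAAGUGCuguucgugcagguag
mmu-miR-25-3p, chr5:138165332-138165353, minus strand: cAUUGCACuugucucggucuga
mmu-miR-294-3p: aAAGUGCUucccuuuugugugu
mmu-miR-302b-3p: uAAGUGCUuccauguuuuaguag
miR-106b and miR-93 share the seed AAAGUGC, miR-294 and miR-302b share AAGUGCU, and miR-25 has AUUGCAC. The 3′ reads of Mcm7 gave 789, 826 and 818 CPM in WT monosomes and 553, 636 and 658 in KO monosomes. In high polysomes they gave 697, 659 and 750 CPM in WT and 1079, 797 and 1185 in KO cells. Mcm7 was thus lower in monosomes and higher in high polysomes of KO cells, with no overlap between groups in either. The intron with the miRNA genes spans 138165162 to 138165909, and the 3′ end of the gene is at 138164583. Whether reads from this intron entered the Mcm7 counts was not tested.

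GINS, the 4-subunit complex that joins MCM and CDC45 at firing, moved the other way. The summed level of Gins1 to Gins4 in high polysomes was 477, 455 and 451 CPM in WT and 175, 155 and 144 CPM in KO gradients. All 4 were called lower in high polysomes, and all 4 fell in translation level at an adjusted p under 0.05, from -0.60 ± 0.20 (Gins2) to -1.44 ± 0.27 (Gins1). The change in translation level was negative for all 4 under every alternative run, with 2 to 4 past the adjusted p and 2 without KO gradient 3, WT gradient 1 or WT gradient 3. The subunits differed in the light fractions.

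Gins1 (ENSMUSG00000027454, chromosome 2, 150905400 to 150931280, plus strand) had 18.8, 27.1 and 29.2 CPM in WT monosomes, 35.3, 26.2 and 37.6 in low polysomes and 78.4, 73.5 and 72 in high polysomes. In KO cells it had 26.1, 31.1 and 31.3, then 28.3, 24 and 31.5, then 36, 36.3 and 29 CPM. The rise from monosomes to high polysomes seen in each WT gradient was smaller or absent in the KO gradients, and the genotypes overlapped in the light fractions. Its log2 high polysome to monosome ratio was 2.02, 1.42 and 1.28 in WT and 0.45, 0.22 and -0.11 in KO gradients, a change of -1.44 ± 0.27 (adjusted p = 8.06e-05). In high polysomes alone it fell by 1.16 on the log2 scale (adjusted p = 1.61e-08).

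Gins4 (ENSMUSG00000031546, chromosome 8, 23226616 to 23237659, minus strand) had 53.6, 45.2 and 38.9 CPM in monosomes, 51.1, 46.3 and 53.3 in low and 120, 96.2 and 95.2 in high polysomes of WT cells. In KO cells the values were 46.1, 51.3 and 47.8, then 43.6, 56.7 and 49.1, then 41.7, 44.4 and 51.2 CPM. As with Gins1, the genotypes overlapped in the light fractions and stood apart in high polysomes. The change in translation level was -1.24 ± 0.22 (adjusted p = 4.71e-05), from ratios of 1.15, 1.08 and 1.28 in WT to -0.14, -0.20 and 0.10 in KO gradients.

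Gins2 (ENSMUSG00000031821, chromosome 8, 120578633 to 120589304, minus strand) was low in KO cells in every fraction, and it and Rfc4 were the 2 members called lower in all 3 (4.65%, close to the 4.44% of all genes). WT cells had 295, 311 and 271 CPM in monosomes, 339, 323 and 334 in low polysomes and 250, 263 and 250 in high polysomes. KO cells had 130, 99.8 and 104, then 148, 110 and 107, then 85.3, 59.6 and 50.3 CPM. No KO library reached the lowest WT library of its fraction. The changes were -1.41 ± 0.15 (adjusted p = 2.77e-10), -1.47 ± 0.13 (adjusted p = 4.22e-12) and -2.02 ± 0.14 (adjusted p = 3.02e-15), and the change in translation level was -0.60 ± 0.20 (adjusted p = 0.0233). Gins3 had 27.5 ± 5.75 CPM (SD, n = 3) in WT high polysomes and 13 ± 1.36 in KO, a change of -1.06 ± 0.21 (adjusted p = 2.98e-05), which lost its call without KO gradient 1 (-0.99) or WT gradient 3 (-0.92).

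The other firing factors were also lower in parts of the gradient. Cdc7, the kinase that triggers firing, and Dbf4, its activating subunit, fell in all 3 fractions at an adjusted p under 0.05, with log2 changes of -0.87 ± 0.20, -0.62 ± 0.19 and -0.73 ± 0.22 for Cdc7 and -0.46 ± 0.14, -0.58 ± 0.13 and -0.94 ± 0.13 for Dbf4. Cdc45, the third part of the CMG helicase, fell in high polysomes (-0.75 ± 0.15, adjusted p = 6.4e-05) and had changes of -0.06 and 0.03 in the light fractions. Mcm10, which binds the active helicase, followed the MCM subunits: it fell in monosomes (-0.77 ± 0.15) and low polysomes (-0.60 ± 0.14) and rose in translation level (0.83 ± 0.20, adjusted p = 0.00135). Thus of 8 firing factors 5 fell and 1 rose in translation level at an adjusted p under 0.05, and Dbf4 (-0.47) fell as well with the gradient block (adjusted p = 0.0257).

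In the origin recognition complex, Orc5 was the 1 gene that rose in any fraction. Orc5 was chosen for its values here after they were seen. It had 32.8, 41.9 and 37.1 CPM in WT monosomes, 37, 43 and 31.9 in low and 67.1, 60.5 and 87.3 in high polysomes. In KO cells it had 56.1, 59.4 and 70.1, then 62.4, 60.2 and 84.3, then 146, 145 and 201 CPM. Every KO library was above every WT library of its fraction. The changes were 0.73 ± 0.21 (adjusted p = 0.00551), 0.88 ± 0.17 (adjusted p = 2.68e-05) and 1.20 ± 0.15 (adjusted p = 6.18e-09), of which the last was called and dropped to 0.97 under total-count scaling. The spans of Gm15421 and Gm22887 overlap that of Orc5 on its strand, so its count may be uncertain. Whether exons or 3′ ends are shared was not tested, here and for the other overlaps named below.

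The other 5 origin recognition genes fell or did not pass the test. Orc6, the smallest subunit, fell in all 3 fractions, with log2 changes of -0.70 ± 0.13, -0.99 ± 0.13 and -1.49 ± 0.12, from 266 ± 12 to 94.8 ± 8.8 CPM in high polysomes, and in translation level (-0.80 ± 0.18, adjusted p = 0.000876). Orc4 fell in low and high polysomes (-0.73 ± 0.23 and -0.89 ± 0.23) and in translation level (-0.92 ± 0.33, adjusted p = 0.0322). Orc2 fell in monosomes and high polysomes (-0.62 ± 0.16 and -0.76 ± 0.12) and Orc3 in low and high polysomes (-0.77 ± 0.16 and -0.81 ± 0.15). Gm23966 overlaps the span of Orc2 on its strand. Orc1, an ATPase subunit, fell in low polysomes alone (-0.56 ± 0.15). No origin recognition gene rose in translation level at an adjusted p under 0.05.

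Among the loaders, Cdt1 was the more affected. In monosomes it had 590 ± 23.6 CPM (WT) and 235 ± 46.3 CPM (KO), a change of -1.34 ± 0.13 (adjusted p = 2.69e-11). It also fell in low and high polysomes (-0.76 ± 0.13 and -0.48 ± 0.12). Its translation level rose by 0.86 ± 0.17 (adjusted p = 0.000198). Gm20388 overlaps the span of Cdt1 on its strand, so the Cdt1 count may be uncertain. Cdc6, the other loader, did not pass the test in any fraction, with changes of -0.39, -0.30 and 0.16.

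Gmnn (ENSMUSG00000006715, chromosome 13, 24751845 to 24761923, minus strand), which encodes the inhibitor of CDT1, resembled Gins1 and Gins4. WT levels were 98.4, 103 and 80.5 CPM in monosomes, 115, 132 and 140 in low polysomes and 253, 262 and 319 in high polysomes. KO levels were 101, 88.1 and 96.4, then 119, 107 and 148, then 114, 121 and 125 CPM. Only the high polysome libraries of the genotypes stood apart. Its translation level changed by -1.21 ± 0.20 (adjusted p = 9.37e-06), with ratios of 1.35, 1.34 and 1.98 in WT and 0.17, 0.46 and 0.38 in KO gradients. Cdt1 and its inhibitor therefore changed in opposite directions in translation level.

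**Figure D3:**
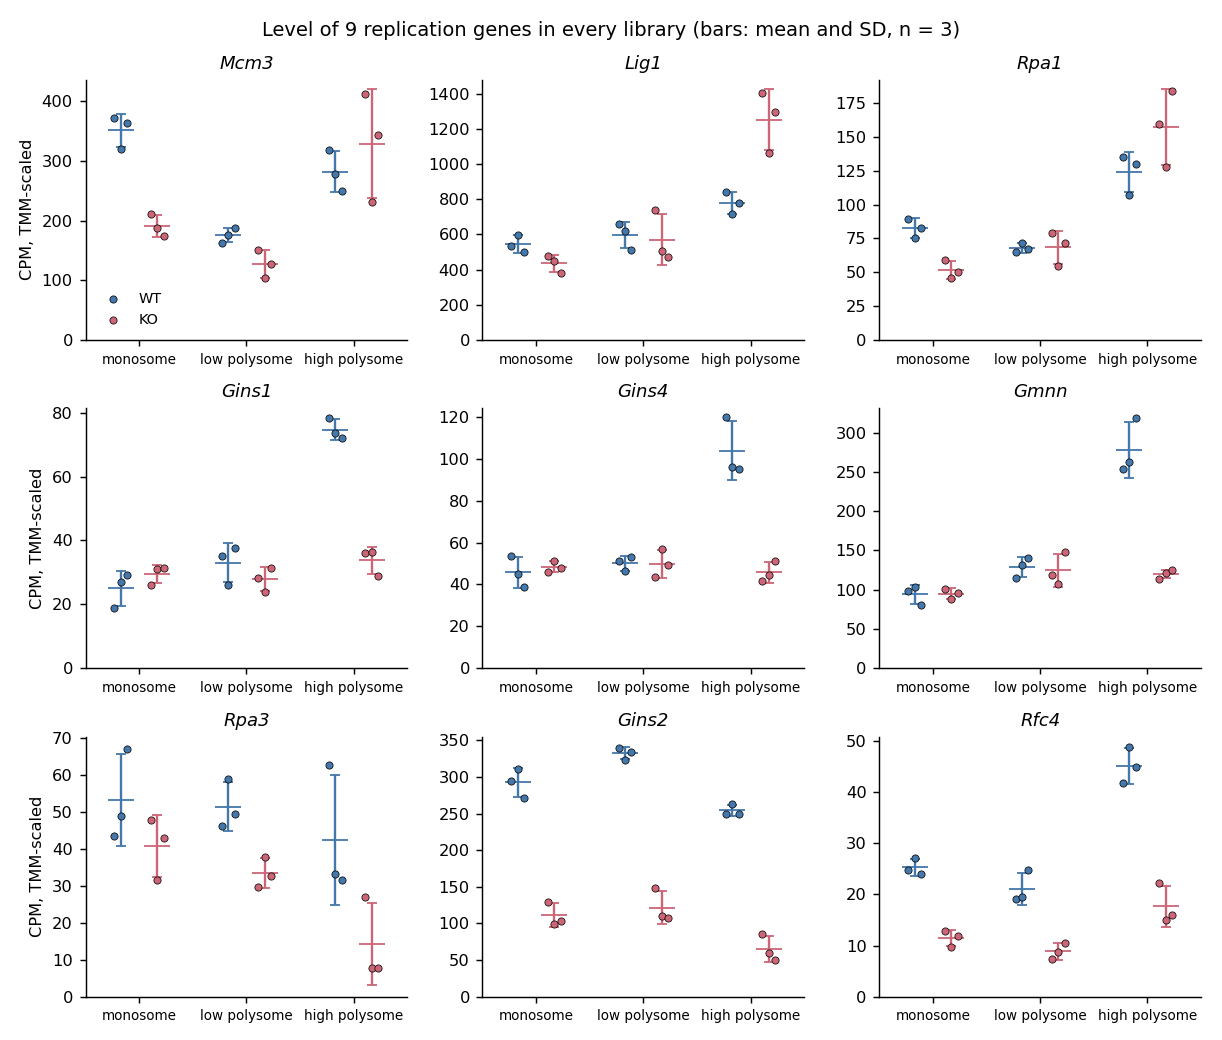
Levels of 9 replication genes (CPM, TMM-scaled) in every library of WT (blue) and KO (red) cells by fraction, with the mean and SD of 3 libraries. Mcm3, Lig1 and Rpa1 have KO points below the WT points in monosomes and reaching above them in high polysomes, Gins1, Gins4 and Gmnn stand apart in high polysomes only, and Gins2 and Rfc4 are lower in all fractions.

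The RFC clamp loader shares its small subunits Rfc2 to Rfc5 in 1 complex with the large Rfc1. Rfc4 (ENSMUSG00000022881, chromosome 16, 23113943 to 23127737, minus strand) had 24.8, 27.1 and 23.9 CPM in WT monosomes, 19, 19.5 and 24.7 in low and 41.7, 48.7 and 44.9 in high polysomes. KO cells had 12.8, 9.71 and 11.8, then 7.38, 8.65 and 10.5, then 22.2, 14.9 and 15.9 CPM. The groups did not overlap in any fraction. Its changes were -1.17 ± 0.26 (adjusted p = 0.000344), -1.23 ± 0.22 (adjusted p = 1.2e-05) and -1.38 ± 0.17 (adjusted p = 5.73e-09), with -0.21 ± 0.31 (adjusted p = 0.654) in translation level, and the monosome change lost its call without KO gradient 2 (-0.98).

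Rfc2 fell in all 3 fractions (-0.37 ± 0.13, -0.91 ± 0.12 and -1.09 ± 0.12) and in translation level (-0.72 ± 0.17, adjusted p = 0.0014). Rfc3 and Rfc5 fell in high polysomes alone (-0.39 ± 0.13 and -0.45 ± 0.11), and Rfc1 did not pass the test in any fraction (-0.14, 0.05 and -0.08). Gm43628 overlaps the span of Rfc1 on its strand. Pcna, the sliding clamp, fell slightly in high polysomes (-0.36 ± 0.13, adjusted p = 0.0185) and had a change in translation level of 0.00 ± 0.25 (adjusted p = 0.994). Pcna has annotated pseudogenes, and its count, from uniquely aligned reads, is uncertain.

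Of the 5 members that are subunits of polymerases delta and epsilon, 0 changed in translation level at an adjusted p under 0.05, with values from -0.44 (Pole2) to 0.53 (Pold1). Pold4, Pole3 and Pole4 were tested among the further replication factors below. The log2 high polysome to monosome ratio of Pole3 was -0.19, -0.31 and -0.74 in WT and -1.58, -1.53 and -1.2 in KO gradients. For Pole4 it was -1.49, -1.58 and -1.81 in WT and -2.19, -2.55 and -2.46 in KO gradients. The Pold4 gradients overlapped. Pole2, the second subunit of polymerase epsilon, fell in high polysomes (-0.87 ± 0.23, adjusted p = 0.00129), and Pole, its catalytic subunit, fell in monosomes and low polysomes (-0.70 ± 0.28 and -0.52 ± 0.16). Pold2, an accessory subunit of polymerase delta, fell in monosomes (-0.62 ± 0.17). In polymerase alpha, the catalytic gene Pola1 rose in high polysomes (0.56 ± 0.14, adjusted p = 0.000972) and in translation level (0.71 ± 0.22, adjusted p = 0.0147), whereas Prim1, the catalytic primase, fell in both (-0.70 ± 0.14 and -0.64 ± 0.23). Its partner Prim2 rose in high polysomes (0.44 ± 0.20, adjusted p = 0.0489) with a wide error in translation level (0.84 ± 0.35, adjusted p = 0.0731). With the gradient block that adjusted p was 0.0469. The spans of Pola1, Pold1, Pole, Pole2 and Prim2 are overlapped on their strand by other annotated genes, which may make their counts uncertain.

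Lig1 (ENSMUSG00000056394, chromosome 7, 13277283 to 13311433, plus strand), the ligase that seals Okazaki fragments, had 535, 598 and 497 CPM in WT monosomes, 658, 619 and 513 in low and 841, 717 and 779 in high polysomes. KO cells had 476, 450 and 378, then 738, 505 and 469, then 1402, 1061 and 1295 CPM. All KO high polysome libraries were above all WT ones, and all KO monosome libraries were below all WT ones. Its changes were -0.33 ± 0.14 (adjusted p = 0.065) in monosomes, 0.68 ± 0.13 (adjusted p = 2.01e-05) in high polysomes and 1.01 ± 0.19 (adjusted p = 9.14e-05) in translation level. The last value is close to the fold threshold and lost its call in 7 of 15 alternatives, among them leaving out KO gradient 1 (0.99), KO gradient 3 (0.88) or WT gradient 2 (0.84), and total-count scaling (0.68). Fen1, which trims the flaps that Lig1 then seals, rose in high polysomes (0.33 ± 0.14, adjusted p = 0.0442) and had 0.35 ± 0.25 (adjusted p = 0.326) in translation level.

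The 3 RPA subunits, which work as 1 trimer, parted from each other. Rpa1 (ENSMUSG00000000751, chromosome 11, 75298166 to 75348324, minus strand), the large DNA-binding subunit, had 89.7, 75.5 and 83.1 CPM in WT monosomes, 64.9, 72 and 67.1 in low and 135, 107 and 130 in high polysomes. KO cells had 58.9, 45.8 and 50.1, then 78.7, 54.8 and 72, then 160, 128 and 184 CPM. KO monosome libraries were all below WT, and high polysome libraries overlapped. It fell in monosomes (-0.70 ± 0.17, adjusted p = 0.00143) and rose in high polysomes (0.34 ± 0.14, adjusted p = 0.03). Its change was 1.03 ± 0.22 (adjusted p = 0.000371) in translation level, with ratios of 0.59, 0.50 and 0.64 in WT and 1.43, 1.47 and 1.86 in KO gradients. Gm47300 overlaps the span of Rpa1 on its strand, which may make the Rpa1 count uncertain. The call was lost in 5 of 15 alternatives, among them leaving out KO gradient 3 (0.90) or WT gradient 2 (0.97), and total-count scaling (0.71).

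Rpa3 (ENSMUSG00000012483, chromosome 6, 8255936 to 8259173, minus strand), the smallest subunit, had 43.5, 49 and 67.2 CPM in WT monosomes, 46.2, 58.9 and 49.4 in low and 62.8, 33.2 and 31.5 in high polysomes. KO cells had 47.8, 31.5 and 43.1, then 29.8, 37.8 and 32.6, then 27.1, 7.77 and 7.81 CPM. In high polysomes gradient 1 was the highest of its group in both genotypes, and every KO library was below every WT library, with KO gradients 2 and 3 the lowest. The change was -1.81 ± 0.28 (adjusted p = 7.24e-07) there and -1.43 ± 0.38 (adjusted p = 0.00391) in translation level, where the gradients overlapped. The latter lost its call without KO gradient 3 (-1.02), without WT gradient 1 (-1.0) and in DESeq2 (-1.19). Rpa2, the middle subunit, rose in low polysomes (0.37 ± 0.12, adjusted p = 0.0105), fell in high polysomes (-0.35 ± 0.12, adjusted p = 0.0104) and had -0.04 ± 0.18 (adjusted p = 0.89) in translation level.

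Within each genotype the set leaned toward the heavy fraction, with a median translation level of 0.37 in WT and 0.45 in KO cells on the log2 scale, beside -0.01 and -0.07 over all genes. In WT cells 5 members were called higher in high polysomes than in monosomes (Gins1, Gmnn, Pcna, Gins4 and Fen1) and 1 lower (Cdc7), against 10.7 and 19.3% of all genes. In KO cells 8 were called higher (Rpa1, Lig1, Mcm6, Pcna, Fen1, Orc5, Pold2 and Prim2) and 4 lower (Rpa3, Gins3, Orc4 and Cdc7), against 17.5 and 25.5% of all genes. Pcna and Fen1 were called higher in both, at 1.51 ± 0.18 and 1.51 ± 0.17 for Pcna and 1.11 ± 0.19 and 1.45 ± 0.16 for Fen1. Gins1, Gins4 and Gmnn were called higher in WT (1.60 ± 0.21, 1.16 ± 0.16 and 1.55 ± 0.14) and not in KO cells (0.16 ± 0.18, -0.08 ± 0.15 and 0.34 ± 0.14). For these 3 genes that difference is the called change in translation level given above. All 6 MCM subunits were above 0 at an adjusted p under 0.05 in KO cells (0.71 to 1.52), and Mcm6 alone was in WT cells (0.87 ± 0.13). With the gradient block Mcm4 (0.36) was also above 0 and Mcm3 (-0.32) below 0 in WT cells. Without 1 gradient, the calls of Fen1 in WT (0.97 without gradient 1) and of Orc4 (-0.99 without gradient 1), Cdc7 (-0.99 without gradient 2) and Prim2 (0.92 without gradient 2) in KO cells were lost.

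Members that fell in translation level tended to have shorter coding sequences (CDS) than those that rose. The classes here were set after the values were seen. Of 9 members with a CDS under 1000 nt, 8 had a negative change, 7 fell at an adjusted p under 0.05 and 0 rose, with a median of -0.80. Of 20 members from 1000 to under 2000 nt, 2 rose and 4 fell, with a median of -0.03. Of 14 members with 2000 nt or more, 13 had a positive change, 8 rose and 0 fell, with a median of 0.68. Across the 43 members the change followed CDS length with a Spearman's rho of 0.71, and it followed 3′ UTR length with a rho of 0.03. These are correlations across genes measured in the same libraries, and genes are not independent replicates.

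The same relation was present across the transcriptome. Across all 11763 protein-coding genes tested the rho was 0.56, and the median change rose from -0.94 in the decile with the shortest CDS to 0.62 in the longest. Set against the median of their own length decile, 21 members lay above and 22 below. Members furthest above were Rpa1, Mcm3, Prim2 and Cdt1 (by 0.83, 0.74, 0.73 and 0.66), and those furthest below were Cdc45, Orc4, Dbf4 and Gins1 (-0.89, -0.89, -0.81 and -0.80). All 6 MCM subunits were above their decile's median, by 0.01 (Mcm4) to 0.74 (Mcm3), and 3 of the 4 GINS subunits were below theirs, with Gins2 above by 0.04. Within gradients, the log2 high polysome to monosome ratio had a rho with CDS length over the members of -0.33, -0.25 and -0.31 in WT and 0.42, 0.19 and 0.43 in KO gradients. The sign thus differed between the genotypes in all 3 gradients of each.

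**Figure D4:**
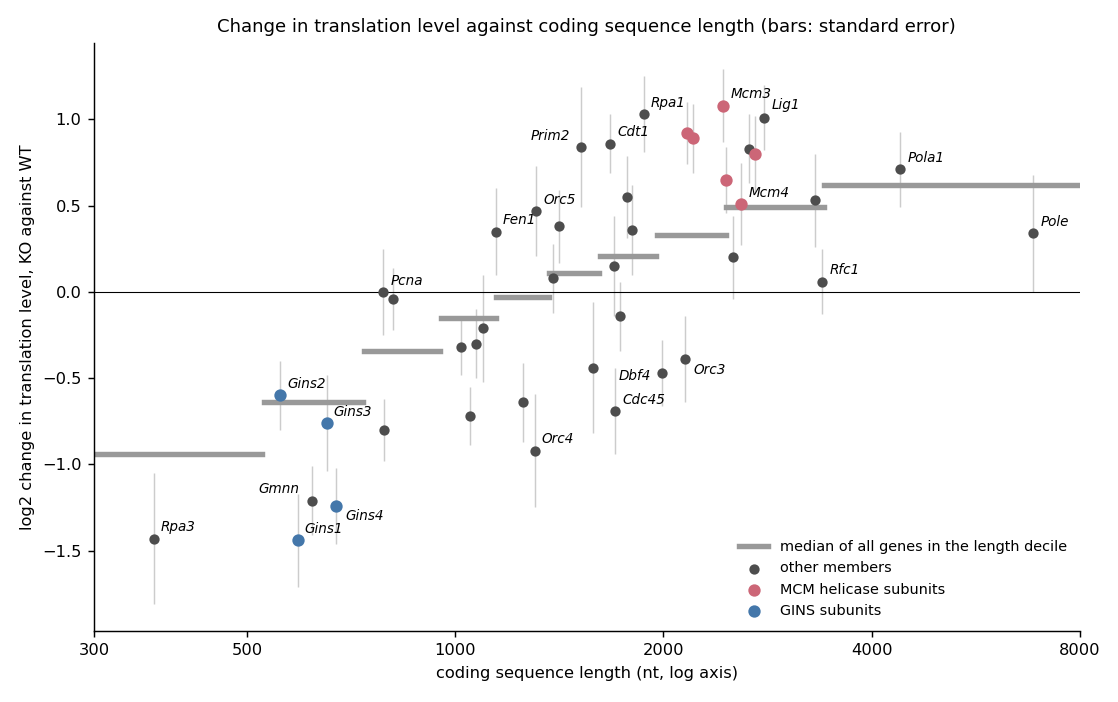
Change in translation level (log2, KO against WT, with standard error) of the 43 replication genes against CDS length in nt on a log axis, with the MCM subunits in red and the GINS subunits in blue. Grey bars give the median of all protein-coding genes tested in each decile of CDS length, and the first and last bar are cut at the edges of the plot. Members range from -1.44 (Gins1) to 1.08 (Mcm3) and tend upward with CDS length, as the grey bars do.

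The 3′ UTRs were searched for seed matches of the ESCC miRNAs. No filter for conservation or repeats was used, whereas the study took its targets from conserved TargetScan predictions. A match of letters is a description and not a tested site. Matches to bases 2 to 8 (AGCACTT) or to bases 2 to 7 followed by A (GCACTTA) were found in 7 of 43 members (16.3%), namely Orc4, Cdc6, Cdt1, Gins3, Rfc2, Pola1 and Rpa2, and in 2258 of 11673 protein-coding genes tested with a 3′ UTR (19.3%). The matches of Cdt1, Gins3 and Rfc2, which were each called lower in 1 fraction, are shown with the match in capitals and 10 bases on each side, and the coordinates (GRCm38, GENCODE M21) are those of the match.
Cdt1, chr8:122572694-122572700, plus strand: agtacacgacGCACTTAcgcctttaag
Gins3, chr8:95644300-95644306, plus strand: gtgcggattgAGCACTTgaagagcaga
Rfc2, chr5:134598544-134598550, plus strand: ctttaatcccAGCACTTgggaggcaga
Of the 7 genes, Cdt1 and Pola1 rose in translation level, Gins3, Rfc2 and Orc4 fell, and Cdc6 and Rpa2 did not pass the test (0.55 and -0.04), although Cdc6 passed with the gradient block (adjusted p = 0.0308). Orc5, the member called higher in high polysomes, has no such match in its 683 nt 3′ UTR.

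Other genes of the pathway were taken from 4 further lists. Of 26 further replication factors, 4 were called higher in translation level, among them Ticrr (1.45 ± 0.26), Recql4 (1.31 ± 0.36) and Mtbp (1.28 ± 0.32), which act in origin firing. The 2 called lower included Rnaseh2c (-1.26 ± 0.24), a subunit of an enzyme that removes RNA from DNA. Tipin, whose product guards stalled forks, was called lower in all 3 fractions (-1.60 ± 0.12, -1.78 ± 0.12 and -1.52 ± 0.12). At an adjusted p under 0.05, 10 of the 26 fell and 0 rose in monosomes, 7 fell and 2 rose in low polysomes, and 11 fell and 8 rose in high polysomes. Of all genes, 19.9% fell and 17.5% rose in monosomes, 26.2 and 26.1% in low polysomes, and 31.6 and 29.1% in high polysomes. In translation level 6.29% of all genes were called higher and 8.81% lower. Of 15 genes of nucleotide supply, 14 were tested, 0 were called higher and 4 lower in translation level, Dut (-1.28 ± 0.16), Nme1 (-1.10 ± 0.17), Dctpp1 (-1.01 ± 0.17) and Dctd (-1.01 ± 0.25). In high polysomes 10 of the 14 fell at an adjusted p under 0.05, among them Dctpp1 (-2.17 ± 0.13), Dut (-1.67 ± 0.11) and Rrm2 (-1.05 ± 0.15), which encodes the small subunit of ribonucleotide reductase.

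Single regulators of the pathway were called as well. Of 13 E2F and RB family genes, Rbl2, which encodes a pocket protein that restrains E2F, was called higher in all 3 fractions (1.25 ± 0.33, 1.21 ± 0.23 and 1.88 ± 0.26). E2f1, an activator of replication genes, was called lower in low polysomes (-1.48 ± 0.13). In high polysomes its level was 63.8 ± 16.5 CPM (SD) in WT and 69.3 ± 1.41 CPM in KO cells. Its log2 high polysome to monosome ratio was -2.98, -3.22 and -2.35 in WT and -1.83, -2.07 and -1.96 in KO gradients. Tfdp1, the dimer partner of E2f1, was called lower in low and high polysomes (-1.40 ± 0.18 and -1.18 ± 0.18). In translation level 1 of the 13 was called, Tfdp2 (-1.25 ± 0.22), where 6.29% of all genes were called higher and 8.81% lower. Of the 13, 1 was called higher and 0 lower in monosomes, 2 and 2 in low polysomes, and 2 and 3 in high polysomes. The shares of all genes were 8.43 and 9.63%, 11.4 and 13.6%, and 15.1 and 17.9%. Of 9 genes of chromatin assembly at the fork, Dnmt1, the maintenance DNA methyltransferase, was called higher (1.29 ± 0.22) and Asf1a, a histone chaperone, lower (-1.34 ± 0.22) in translation level.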

How the data were processed

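The authors deposited raw read counts per gene for 18 QuantSeq 3′ libraries of mouse ESCs, from WT and Dgcr8 KO cells in monosome, low polysome and high polysome fractions. According to the submitters' processing notes and the study's methods, reads were trimmed with cutadapt 1.14, aligned uniquely to mm10 with STAR 2.5.3a and counted by strand with featureCounts 1.5.3. No removal of PCR duplicates by molecular identifiers is stated. The 92 ERCC spike-in entries were left out of totals and tests.

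The 6 groups were fitted together in limma-voom (limma 3.58.1, R 4.3.3) with TMM factors (0.8748 to 1.0708), without a block, over 12851 genes with at least 3 CPM in at least 3 libraries. A call needed an adjusted p (Benjamini-Hochberg over all genes) under 0.05 and an absolute log2 change over 1. All p-values are from this fit, except those given with the gradient as a replicate block. The per-gradient log2 ratios used a prior count of 2. Alternatives used edgeR 4.0.16, DESeq2 1.42.0, other scalings, filters and subsets of libraries, and the code was tested on simulated data.

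Numbers in the labels pair the fractions of 1 gradient within a genotype. Deviations from group means of same-numbered samples correlated at 0.032 to 0.135 within a genotype (18 pairs) and 0 to 0.102 between genotypes (27 pairs). Pairs with different numbers ran from -0.14 to 0.076 within a genotype (36 pairs) and from -0.099 to 0.055 between genotypes (54 pairs). The medians were 0.062 (same number) and -0.028 (different) within a genotype, and 0.026 and -0.019 between genotypes. Same-numbered pairs thus tended higher between genotypes too, and these values do not settle whether such a number also marks a pairing between genotypes. The main fit used no pairing, also not that of the fractions within a gradient.

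The 43 members and all gene lists were chosen with earlier results of these data known. Values in every library are given for members called in translation level or called the same way in at least 2 fractions, and from each further list at most 4 called genes per comparison by size of change. Coordinates are GRCm38 (GENCODE M21), and sequences are from RefSeq GRCm38.p6 or that genome.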

Additional observations from a re-analysis of the deposited data

Results flagged for a closer look

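For 7 replication genes the high polysome to monosome difference was not the same in WT and KO cells by the test of that difference (limma-voom interaction, adjusted p under 0.05 and an absolute log2 change over 1). The log2 change was 1.08 for Mcm3, 1.03 for Rpa1 and 1.01 for Lig1, with KO gradients above WT gradients in 3 of 3 for each. It was -1.44 for Gins1, -1.24 for Gins4 and -1.21 for Gmnn, with all KO gradients below all WT gradients. It was -1.43 for Rpa3, whose gradients overlapped.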

How the results depend on the processing

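No call of a member changed direction under the alternatives run, while the median translation level change over the members went from 0.08 to -0.25 under total-count scaling. The count of members called moved by over 1.5 times where the fold threshold was dropped, to 21 for the translation level change, 19 in monosomes, 21 in low polysomes, 31 in high polysomes, 25 for WT translation level and 31 for KO translation level. Leaving out 1 gradient gave 4 to 11 members called for the translation level change (11 without KO replicate 2, 4 without KO replicate 3), 4 to 5 in monosomes, 2 to 3 in low polysomes, 9 to 12 in high polysomes, 5 to 9 for WT and 11 to 14 for KO translation level. With the replicate block, the counts were 7, 5, 2, 10, 6 and 12, as without it, and with a block by gradient the 3 translation-level counts were 7, 6 and 12, with the same members called. By the adjusted p alone, the block by gradient gave 25 members in place of 21 for the translation level change and 27 in place of 25 for WT translation level. Of 42 calls of a member in a comparison, 30 held under every alternative, and the calls lost in at least 3 alternatives were those of Lig1, Rpa1, Mcm3 and Rpa3 in translation level change, Mcm4 in monosomes and Prim2 in KO translation level. Levels of members with few reads, such as Prim2, are limited by depth.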
